A study of Mus musculus with 4 samples.

Results

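Genes of DNA methylation and of the Polycomb system were compared between mouse CD8+ T cells differentiated in vitro and CD8+ cells of the thymus. The 10 genes were Dnmt1, Uhrf1, Hells, Dnmt3a, Dnmt3b, Ezh2, Ezh1, Eed, Suz12 and Bmi1, and they were found by their exact gene name among the 27962 gene names of the array's probes that are not controls. They held 15 of the 41174 such probes: 6 genes had 1 probe, 3 genes (Uhrf1, Suz12 and Bmi1) had 2 and Dnmt3a had 3. All 15 probes lay well above background in both dyes on all 4 arrays, so none was lost to the filter on dim probes.

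The in vitro-derived cells were grown from Lin-Sca1+CD117+ progenitors sorted from the bone marrow of B6 (C57Bl/6) mice aged 6 to 8 weeks. They spent 35 days on OP9-DL1, a stromal cell line engineered to carry the Notch ligand Delta-like 1, in medium with Flt3 and IL7, and CD8+TCRβhi cells were then sorted. The thymic cells were CD8+TCRβhi cells sorted from C57Bl/6 mice aged 4 to 5 weeks, and neither kind was treated further. There were 2 RNA preps of each kind, called prep 1 and prep 2, and each in vitro prep was hybridised against each thymic prep on 4 2-colour Agilent arrays. In vitro-derived RNA carried Cy5 and thymic RNA carried Cy3 throughout, so that dye, donor age and origin of the cells cannot be told apart. Array 1 paired in vitro prep 1 with thymic prep 1, array 2 in vitro prep 2 with thymic prep 1, array 3 in vitro prep 1 with thymic prep 2, and array 4 in vitro prep 2 with thymic prep 2. The labels speak of biological replicates without naming separate animals or cultures, so the p-values below reflect only how far these preps spread, which may be partly technical. These are bulk samples, in which more transcript per cell and more cells with the transcript cannot be told apart.

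DNA methylation of CG dinucleotides is copied after each round of replication by Dnmt1, the maintenance methyltransferase, which is brought to newly made DNA by Uhrf1, a reader of half-methylated sites. Dnmt3a and Dnmt3b place methylation on DNA that had none, and the chromatin remodeller Hells (also called Lsh) is needed for normal methylation of repeats. Polycomb proteins silence developmental genes through histone marks: PRC2, built on Ezh2 or its paralogue Ezh1 with Eed and Suz12, methylates the tail of histone H3, and PRC1, which can hold Bmi1, ubiquitylates histone H2A. In mouse lymphocytes both systems maintain silencing while progenitors divide and differentiate, and in mouse tissues Ezh2 is known mostly from dividing cells and Ezh1 also from resting ones.

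The promoters of the 10 genes are given first, because E2F-type motifs in them are counted against the calls at the end. E2F factors control genes of the transition from growth to DNA replication. RefSeq (GRCm38.p6) gives 15 start windows for the 10 genes, each of 300 bases (250 before the start and 50 from it on). Windows were searched on both strands for the 4 words TTTGGCGC, TTTCGCGC, TTTCCCGC and TTTGCCGC. At least 1 match lay in a window of 5 of the 10 genes: Dnmt1, Uhrf1, Hells, Ezh2 and Suz12. No match lay in the windows of Dnmt3a, Dnmt3b, Ezh1, Eed or Bmi1. Among all 32851 RefSeq windows 2.26% held a match, and among the 10945 tested genes with a window 4.26% did. The 100 bases around a match are shown for each of the 5 genes, with the match in capitals, and a stretch of the Ezh1 promoter without a match is shown beside that of its paralogue Ezh2. All are written 5′ to 3′ on the strand of the gene.
Dnmt1, chr9:20952774-20952873, minus strand: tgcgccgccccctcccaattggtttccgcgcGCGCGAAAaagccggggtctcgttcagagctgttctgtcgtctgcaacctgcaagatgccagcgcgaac
Uhrf1, chr17:56304082-56304181, plus strand: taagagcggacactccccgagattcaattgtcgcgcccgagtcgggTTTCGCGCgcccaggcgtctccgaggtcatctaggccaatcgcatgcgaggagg
Hells, chr19:38930882-38930981, plus strand: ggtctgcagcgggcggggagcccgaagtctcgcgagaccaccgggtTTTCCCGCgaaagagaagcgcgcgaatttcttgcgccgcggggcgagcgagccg
Ezh2, chr6:47595019-47595118, minus strand: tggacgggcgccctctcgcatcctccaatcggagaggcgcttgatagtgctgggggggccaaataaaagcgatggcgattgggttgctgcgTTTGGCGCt
Suz12, chr11:79992856-79992955, plus strand: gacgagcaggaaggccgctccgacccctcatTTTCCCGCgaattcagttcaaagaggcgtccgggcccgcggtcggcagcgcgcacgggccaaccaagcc
Ezh1, chr11:101226470-101226569, minus strand: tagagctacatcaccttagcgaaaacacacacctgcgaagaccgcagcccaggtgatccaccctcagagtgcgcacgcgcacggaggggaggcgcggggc

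In Dnmt1 the capitals are the reverse complement of TTTCGCGC, which is read on the opposite strand 219 bases before the start. A second match in the same window, TTTGGCGC at 34 bases after the start, lies outside the stretch shown. The Uhrf1 match is TTTCGCGC at 185 bases before the start, and Hells and Suz12 hold TTTCCCGC at 62 and 219 bases before it. In Ezh2 the match TTTGGCGC begins at base 4 of the transcript. Member windows were rich in CG, with a median of 30 CG dinucleotides per window (range 2 to 47), against 7 over all windows, and the words searched each contain CG. A match is a description of the letters and is neither a binding site nor a cause of a difference.

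The first question was how the members differ between the 2 kinds of cells. A probe is called when its log2 difference between in vitro-derived and thymic preps has a Benjamini-Hochberg adjusted p under 0.05 in limma's moderated test over all 27236 tested probes. Of the 15 member probes 10 were called higher in in vitro-derived cells, where 26.6% of all tested probes were, and 2 were called lower, where 25.6% were. With 52.2% of all probes called in either direction, a call alone sets no gene apart here. These counts depend on leaving out marked spots before the background model is fitted. With the model fitted on all spots, 10132 probes were called, 9 of them member probes (7 higher, 2 lower). With marked spots kept as well, 10163 were called, again with 9 member probes. Without thymic prep 1, 7 member probes were called (6 higher, 1 lower) among 8713 calls over all probes, and 9 were called among 8124 without thymic prep 2, against 12 among 14223 with all preps. The median log2 difference was 0.44 over the 15 member probes and 0.03 over all tested probes. Prep levels of the 2 kinds did not overlap for 14 of the 15 member probes, which was also so for 77.3% of all tested probes. By gene, 6 were called higher on every probe (Dnmt1, Uhrf1, Hells, Ezh2, Suz12 and Bmi1) and 1, Ezh1, was called lower. Dnmt3b and Eed were not called, and the 3 Dnmt3a probes went different ways.

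**Figure D1:**
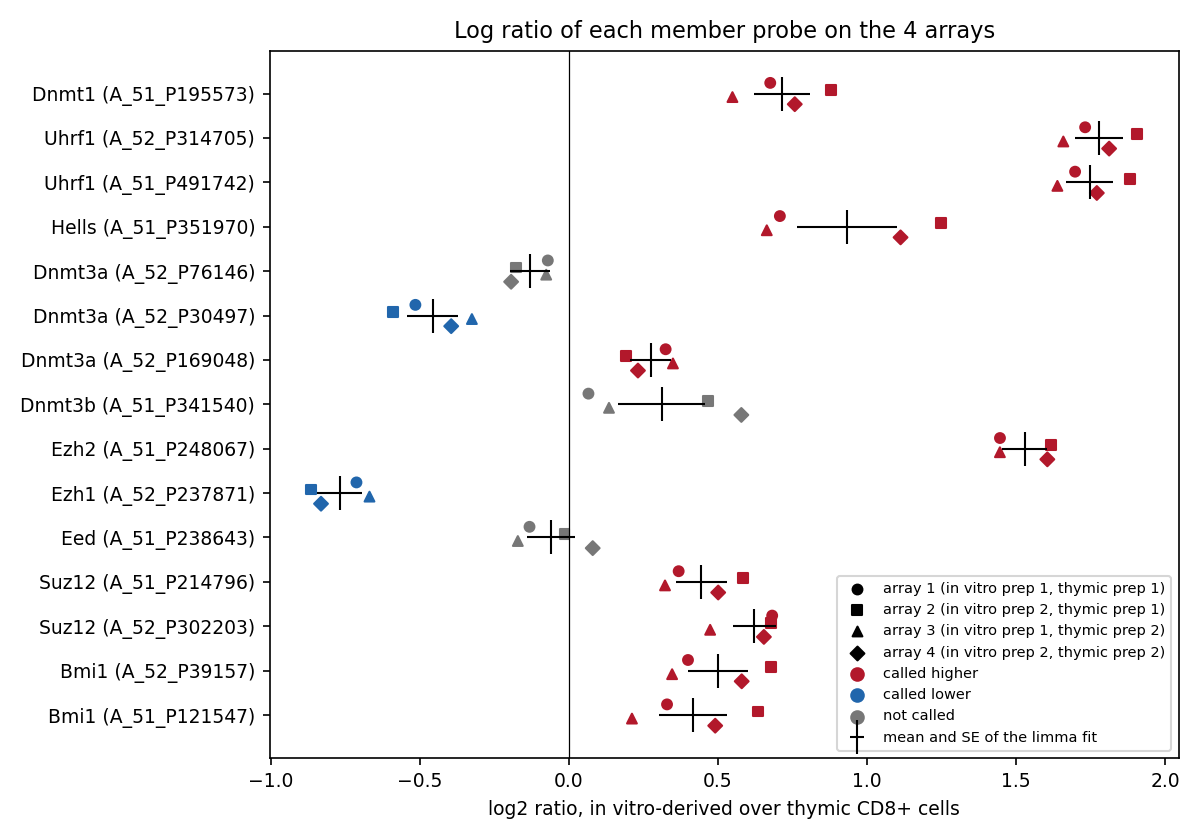
Log2 ratio of in vitro-derived over thymic CD8+ cells (x axis) for each of the 15 member probes (y axis) on the 4 arrays, marked by array, with the mean and standard error of the limma fit as black crosses and colour for the call. Both Uhrf1 probes and Ezh2 lie farthest to the right at about 1.45 to 1.91, Ezh1 lies left of 0 on all 4 arrays, and the Dnmt3a probes lie on both sides of 0.

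Uhrf1 showed the largest difference among the members on both of its probes. The array's annotation places the probes at chromosome 17, 54481483 to 54481542 and 54481380 to 54481439; no source used here gives the genome build behind the coordinates of this or any other probe. On probe A_52_P314705 the log2 ratio was 1.73, 1.91, 1.66 and 1.81 on arrays 1 to 4. Its log2 level, the intensity of each dye after normalization, was 14.36 and 14.49 in the in vitro preps, against 12.61 and 12.69 in the thymic preps. Both in vitro preps were above both thymic preps, and the levels within a kind lay close together. The difference was 1.78 ± 0.08 (log2, SE, n = 2 preps of each kind), a 3.43-fold increase with adjusted p = 9.4e-05 in the limma fit. The other probe, A_51_P491742, had ratios of 1.70, 1.88, 1.64 and 1.77 and a difference of 1.75 ± 0.08 (3.36-fold, limma adjusted p = 9.4e-05). Neither probe lost its call or turned under any of the alternatives run.

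Dnmt1, the enzyme that Uhrf1 brings to DNA, rose less. Its probe (chromosome 9, 20784085 to 20784453) had log2 ratios of 0.68, 0.88, 0.55 and 0.76 on arrays 1 to 4. Its log2 level was 13.36 and 13.60 in the in vitro preps, against 12.70 and 12.83 in the thymic preps. The in vitro preps lay above the thymic preps without overlap. The difference was 0.72 ± 0.09 (1.64-fold, limma adjusted p = 0.00244). Before normalization the scanner's mean signal for this probe was 18134 to 21212 in Cy5 (in vitro-derived) and 3668 to 4546 in Cy3 (thymic), over local backgrounds of 30.5 to 53.5.

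Hells varied most between the in vitro preps. Its probe (chromosome 19, 38666109 to 38666168) had ratios of 0.71 and 0.66 on arrays 1 and 3, which carried in vitro prep 1, and of 1.25 and 1.11 on arrays 2 and 4, which carried in vitro prep 2. The log2 level was 11.07 and 11.61 in the in vitro preps, against 10.37 and 10.45 in the thymic preps. The gap of 0.54 between the in vitro preps was the widest among the 15 member probes, and both preps still lay above the thymic ones. The difference was 0.93 ± 0.17 (1.91-fold, limma adjusted p = 0.00696).

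Dnmt3a, a de novo methyltransferase, gave a different answer on each of its 3 probes. Probe A_52_P30497 (chromosome 12, 3830965 to 3831024) fell in in vitro-derived cells: its log2 ratio was -0.51, -0.59, -0.33 and -0.39 on arrays 1 to 4, its log2 level 9.69 and 9.62 in the in vitro preps, against 10.21 and 10.01 in the thymic preps. The difference was -0.46 ± 0.09 (SE, n = 2 preps of each kind), 1.37-fold lower, with limma adjusted p = 0.00835. Probe A_52_P169048 (3826602 to 3826661) rose, with ratios of 0.32, 0.19, 0.35 and 0.23 and levels of 10.05 and 9.90 in the in vitro preps, against 9.71 and 9.69 in the thymic preps. Its difference was 0.27 ± 0.07 (1.21-fold, limma adjusted p = 0.0233). Probe A_52_P76146 (3825243 to 3826024) was not called, with ratios from -0.19 to -0.07, a difference of -0.13 ± 0.07 and a 95% interval of -0.30 to 0.04.

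For none of the 3 Dnmt3a probes did the prep levels of the kinds overlap, which was also so for 77.3% of all tested probes. The 2 called probes had 95% intervals on opposite sides of 0 (-0.67 to -0.24 and 0.10 to 0.45), while that of the uncalled probe included 0. The array's annotation ties the probe that fell and the uncalled one to the RefSeq transcripts NM_007872 and NM_153743, and the probe that rose to NM_007872 but not to NM_153743, while it ties all 3 probes to the same pair of Ensembl transcripts. Mouse Dnmt3a is known to have a long form and a shorter form, Dnmt3a2, started from an internal promoter, and RefSeq gives 3 start windows for the gene. The annotation therefore assigns no probe to 1 form, and whether the forms differ between the cells was not tested. Averaged over its 3 probes, Dnmt3a had a within-array log ratio below that of Dnmt1 on every array: the difference of log ratios, Dnmt1 minus Dnmt3a, was 0.76, 1.07, 0.57 and 0.88, with a mean of 0.82 ± 0.21 (SD over 4 arrays that share preps), a ratio of 1.76. With 2 preps against 2, the exact two-sided permutation p was 0.333, the smallest this design allows.

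The calls of Dnmt3a changed with the processing. With median centring of each array in place of loess, the falling probe stood at 0.10 without a call (limma adjusted p = 0.334) and the uncalled one was called higher, at 0.48 with an adjusted p of 0.0017. With the 4 arrays taken as independent the uncalled probe was called lower, at -0.13 with 0.0228, in a range over its alternatives of 0.0017 to 0.544. Without thymic prep 1 the falling probe lay at -0.36 with limma adjusted p = 0.0781, in a range over all alternatives of 0.000349 to 0.334. For the probe that rose the limma adjusted p was 0.0546 without in vitro prep 1, 0.149 without thymic prep 1 and 0.2 without thymic prep 2, in a range of 0.000201 to 0.2. Its call was also lost in the deposited series table (limma adjusted p = 0.0723). The same held with the background model fitted on all spots, whether marked spots were then left out (0.0612) or kept (0.0617). No spot of a member was marked, so for members these are nearly the same alternative.

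Dnmt3b, the other de novo methyltransferase, was not called. Its probe (chromosome 2, 153428204 to 153428263) had log2 ratios of 0.07, 0.47, 0.13 and 0.58 on arrays 1 to 4. The log2 level was 9.44 and 9.81 in the in vitro preps, against 9.34 and 9.28 in the thymic preps. In vitro prep 1 sat just above the thymic preps and in vitro prep 2 well above them. The difference was 0.31 ± 0.15, with a 95% interval of -0.06 to 0.68 and limma adjusted p = 0.133. Without in vitro prep 1 it was 0.52 with an adjusted p of 0.00673, with median centring 0.83 with 0.00327 and with the 4 arrays taken as independent 0.31 with 0.0243, in a range over its alternatives of 0.00327 to 0.349.

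**Figure D2:**
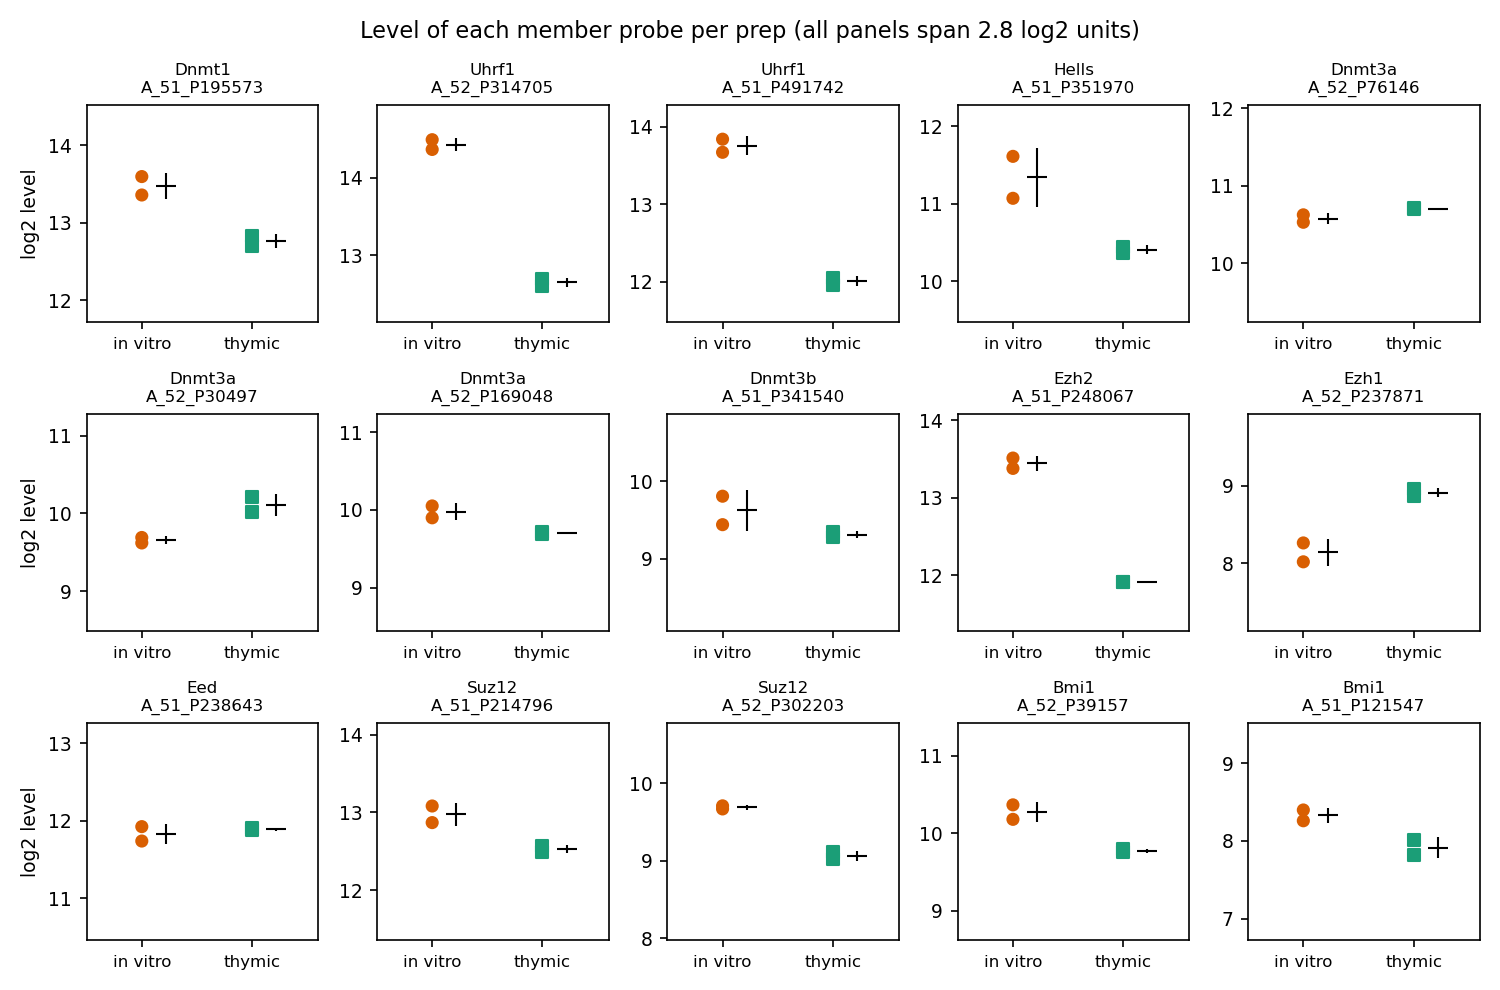
Log2 level of each member probe in each prep (y axis), with in vitro-derived preps (orange circles) left of thymic preps (green squares), and the mean and SD of each kind (n = 2) beside them. Uhrf1 and Ezh2 show the widest gaps between the kinds, Hells the widest gap between in vitro preps (11.07 and 11.61), and in Eed the thymic preps (11.90 and 11.88) lie between the in vitro preps (11.74 and 11.93).

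Among the PRC2 genes the paralogous enzymes moved in opposite directions. Ezh2 rose: its probe (chromosome 6, 47568744 to 47569639) had log2 ratios of 1.45, 1.62, 1.45 and 1.61 on arrays 1 to 4. Its log2 level was 13.38 and 13.51 in the in vitro preps, against 11.92 and 11.92 in the thymic preps. The in vitro preps lay far above the thymic preps, whose levels were nearly equal. The difference was 1.53 ± 0.08 (2.88-fold, limma adjusted p = 0.000121). The scanner's mean signal before normalization was 18078 to 19957 in Cy5 (in vitro-derived) and 2173 to 2530 in Cy3 (thymic).

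Ezh1 fell in in vitro-derived cells. Its probe (chromosome 11, 101300862 to 101300921) had log2 ratios of -0.71, -0.86, -0.67 and -0.83 on arrays 1 to 4. Its log2 level was 8.26 and 8.02 in the in vitro preps, against 8.95 and 8.86 in the thymic preps. All ratios were below 0 and the kinds did not overlap. The difference was -0.77 ± 0.08 (1.70-fold lower, limma adjusted p = 0.000919). Its mean signal before normalization was 351 to 469 in Cy5 (in vitro-derived) and 281 to 322 in Cy3 (thymic), over backgrounds of 25 to 50, and Cy5 was the brighter dye before normalization for all 15 member probes, Ezh1 included. The sign of its log ratio therefore rests on the correction of the dyes. The difference stayed below 0 and called under all alternatives run, and was -0.35 with median centring and -1.01 in the deposited series table.

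Set against each other within arrays, the log ratio of Ezh2 exceeded that of Ezh1 by 2.16, 2.48, 2.11 and 2.44 on arrays 1 to 4. The mean was 2.30 ± 0.19 (SD over 4 arrays that share preps), so that the ratio of the pair differed 4.92-fold between the kinds. The exact two-sided permutation p over the prep values was again 0.333, the smallest possible. These are differences of ratios and not of levels, since the probes of the genes cannot be set against each other.

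Suz12, the PRC2 subunit that holds the enzyme in the complex, rose on both of its probes. Probe A_51_P214796 (chromosome 11, 80115324 to 80115383) had log2 levels of 12.87 and 13.08 in the in vitro preps, against 12.50 and 12.57 in the thymic preps, and a difference of 0.44 ± 0.09 (1.36-fold, limma adjusted p = 0.00942). Probe A_52_P302203 (80095051 to 80095110) had levels of 9.67 and 9.71 in the in vitro preps, against 9.02 and 9.11 in the thymic preps, and a difference of 0.62 ± 0.07 (1.54-fold, limma adjusted p = 0.00163). In both, the in vitro preps were higher without overlap. The first probe missed the threshold without thymic prep 1 (0.41, adjusted p = 0.0669) and without thymic prep 2 (0.48, adjusted p = 0.0536), in a range of 0.000175 to 0.0669, and the second kept its call under every alternative run.

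Eed, the subunit that binds the mark PRC2 makes, was not called. Its probe (chromosome 7, 85913246 to 85916155) had log2 ratios of -0.13, -0.01, -0.17 and 0.08 on arrays 1 to 4. The log2 level was 11.74 and 11.93 in the in vitro preps, against 11.90 and 11.88 in the thymic preps. It was the 1 member probe whose kinds overlapped. The difference was -0.06 ± 0.08, with a 95% interval of -0.27 to 0.15 and limma adjusted p = 0.583. It was 0.05 with the processed signals of the scanner software, 0.03 without in vitro prep 1 and 0.64 when arrays were centred on the median. In this last setting it was called higher (adjusted p = 0.00152, in a range over its alternatives of 0.00152 to 0.864), so no direction can be given.

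Bmi1, a ring finger subunit of PRC1, rose on both probes by small amounts. Probe A_52_P39157 (chromosome 2, 18751519 to 18751578) had log2 levels of 10.18 and 10.37 in the in vitro preps, against 9.75 and 9.79 in the thymic preps, and a difference of 0.50 ± 0.10 (1.42-fold, limma adjusted p = 0.0106). Probe A_51_P121547 (18748838 to 18748897) had levels of 8.26 and 8.40 in the in vitro preps, against 7.82 and 8.01 in the thymic preps, and a difference of 0.42 ± 0.11 (1.33-fold, limma adjusted p = 0.0302). The kinds did not overlap on either probe. Without in vitro prep 2 the second difference was 0.27. Both calls were lost with the background model fitted on all spots, whether marked spots were then left out (limma adjusted p = 0.0627 and 0.116) or kept (0.063 and 0.116). They were also lost without thymic prep 1, at 0.0562 and 0.142, and the second probe's call without thymic prep 2 (0.0741) and in the deposited series table (0.0622). The adjusted p ranged over the alternatives from 0.000354 to 0.063 and from 0.00128 to 0.142.

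In vitro prep 2 lay above in vitro prep 1 for 11 of the 15 member probes, where 50.4% of all tested probes did. The 4 probes that lay lower in in vitro prep 2 were the 3 of Dnmt3a and that of Ezh1. Replication and cell cycle genes, a list of 22, lay higher in in vitro prep 2 for 19 genes, with a median gap of 0.21 on the log2 scale. With 1 prep on each side of this contrast there is no test of it.

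Over the 4 arrays, the ratios of Dnmt1 lay nearest to those of Cenpc1, a centromere protein gene, at a Euclidean distance of 0.06 over the 4 log2 ratios, followed by Odf2l (0.06) and Cpsf4l (0.06). Those of Ezh2 lay nearest to Wdr35 (0.05), Pcna, the sliding clamp of DNA polymerase (0.06), and Kifc5b (0.06). Among 19152 candidate genes 156 lay within 0.2 of Dnmt1 and 48 within 0.2 of Ezh2, so the nearest names are few of many alike, from 4 arrays that share preps.

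The next question was what the other genes of the same systems did. Of 36 other Polycomb genes 35 were tested, each by its probe of highest mean intensity, and Pcgf2 was not well above background. By this count 10 were called higher, where 26.7% of all 19162 tested genes were, and 8 lower, where 25.3% were, with a median log2 difference of -0.01 against 0.03 over all tested genes. With median centring 28 of the 35 were called higher and 1 lower, with a median of 0.72, so the balance of the list depends on the correction of the dyes. Mtf2, a PRC2 accessory protein that binds CG-rich DNA, rose with log2 levels of 13.89 and 13.99 in the in vitro preps, against 12.19 and 12.23 in the thymic preps, a difference of 1.73 ± 0.09 (3.32-fold, limma adjusted p = 0.00014). All 4 of its probes were called higher. Phf1, its paralogue, fell with levels of 11.27 and 11.08 in the in vitro preps, against 12.20 and 12.18 in the thymic preps, a difference of -1.01 ± 0.07 (2.02-fold lower, limma adjusted p = 0.000293). The third paralogue Phf19 rose by 0.92 ± 0.14 (limma adjusted p = 0.00423). These paralogues were thus split, with Mtf2 and Phf19 higher and Phf1 lower, and these directions held with median centring (2.56, 1.51 and -0.33). Jarid2 and Aebp2, further accessory genes of PRC2, were not called on their brightest probes (0.16 and -0.29), and 1 of 2 Jarid2 probes was called lower.

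Among PRC1 genes Rnf2, the ubiquitin ligase also called Ring1b, rose by 0.65 ± 0.09 (1.57-fold, limma adjusted p = 0.00242), on both of its probes. Cbx8, a chromodomain subunit, fell by 0.80 on the log2 scale (SE 0.06, limma adjusted p = 0.000367), with 1 of its 2 probes called lower and the other not called. Pcgf6, of the same ring finger family as Bmi1, fell by 0.53 (SE 0.08, limma adjusted p = 0.00478) on both probes. With median centring Cbx8 was not called (-0.20) and Pcgf6 lay above 0 without a call (0.13). Yy1, a DNA-binding protein linked to Polycomb, is named for its split: 2 of its 3 probes were called higher and 1 lower.

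Of 20 other genes of DNA methylation 18 were tested, and Tet1 and Tet3 had no probe under these names. Among the 18, 8 were called higher and 1 lower, beside 26.7% and 25.3% of all tested genes, with a median log2 difference of 0.18. With median centring 16 were called higher and 1 lower, with a median of 0.94. Pcna had log2 levels of 16.45 and 16.50 in the in vitro preps, against 14.95 and 14.94 in the thymic preps, a difference of 1.53 ± 0.07 (2.90-fold, limma adjusted p = 8.5e-05). Lig1, the ligase that seals newly replicated DNA, rose by 1.26 ± 0.08 (2.39-fold, limma adjusted p = 0.00026). Tdg, a glycosylase of active demethylation, rose by 0.87 ± 0.07 (1.83-fold, limma adjusted p = 0.000495) on both probes. Tet2, which oxidises methylated cytosine, was the called gene that fell, with levels of 7.75 and 7.54 in the in vitro preps, against 8.39 and 8.37 in the thymic preps. Its difference was -0.74 ± 0.10 (1.66-fold lower, limma adjusted p = 0.00234), and both of its probes were called lower. Pcna and Lig1 serve replication in general and not methylation alone, and Pcna stands in the cell cycle list as well.

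**Figure D3:**
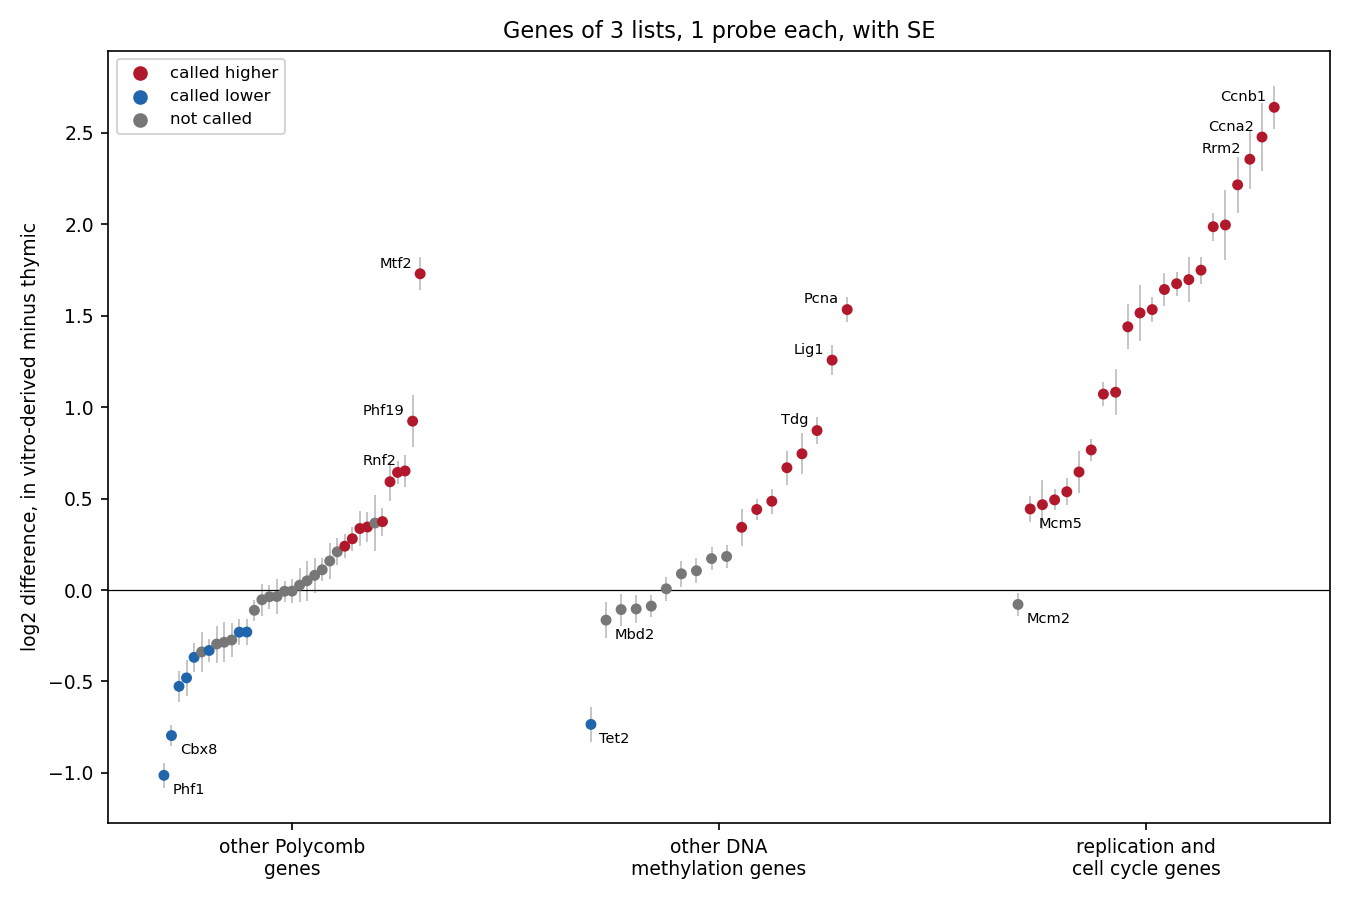
Log2 difference, in vitro-derived minus thymic, with its standard error (y axis) for the tested genes of 3 lists, sorted within each list and coloured by call. The other Polycomb genes spread around 0 from Phf1 (-1.01) to Mtf2 (1.73), the other DNA methylation genes lean upward with Pcna (1.53) at the top and Tet2 (-0.74) at the bottom, and 21 of 22 replication and cell cycle genes were called higher.

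Genes that these systems are known to silence were mostly dim. Of 12 Polycomb targets 8 were tested, 2 were called higher and 1 lower, beside 26.7% and 25.3% of all tested genes. Hoxa7, a homeobox gene, fell: its log2 level was 6.72 and 6.66 in the in vitro preps, against 9.11 and 9.16 in the thymic preps, a difference of -2.44 ± 0.06 (5.44-fold lower, limma adjusted p = 2.3e-05). The cell cycle inhibitor genes Cdkn2a and Cdkn2b, classic targets of Bmi1, were measured above background on 4 of 4 arrays in in vitro-derived cells and on none in thymic cells. They thus passed the filter only through the in vitro dye, where a fall could hardly be seen, so the direction of their calls carries little weight. On the mean level, Cdkn2a was at least 1.91-fold higher (limma adjusted p = 0.0046) and Cdkn2b at least 2.02-fold higher (limma adjusted p = 0.00143) in in vitro-derived cells. These bounds are set against the higher of the gene's own thymic signal and the lowest thymic signal well above background. They come from levels after loess. They do not hold on each array, where the log2 ratio ran from 0.69 to 1.17 for Cdkn2a and from 0.85 to 1.22 for Cdkn2b. For Cdkn2b its own signal was the higher, so that its bound equals the fitted fold. Both calls were lost with the background model fitted on all spots. In vitro prep 2 had the higher level of both, with 6.998 and 7.643 in in vitro preps 1 and 2 for Cdkn2a, against 6.367 and 6.385 in the thymic preps.

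Of 12 germline genes known to be kept silent by DNA methylation, 9 were not well above background on all arrays in either kind. Among the 3 tested, 2 were called higher and 0 lower, beside 26.7% and 25.3% of all tested genes. Tex101 was not called, at -0.17. Stra8, a gene of meiotic entry, rose: its log2 level was 10.57 and 10.88 in the in vitro preps, against 7.46 and 7.43 in the thymic preps. The difference was 3.28 ± 0.08 (9.72-fold, limma adjusted p = 2.5e-05). On the mean level after loess Sycp3, of the meiotic chromosome axis, was at least 1.32-fold higher (limma adjusted p = 0.00134), with no thymic signal well above background. That bound holds for loess levels only: the log2 difference of Sycp3 was 0.52 with loess and 0.24 with median centring. Sycp3 too passed the filter only through the in vitro dye, and its call was lost with the background model fitted on all spots. Methylation itself and histone marks were not measured here.

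Values of other gene lists are given next, and their part in the members' differences was not tested. Replication and cell cycle genes were called higher in 21 of 22 cases, beside 26.7% of all tested genes. Their median log2 difference was 1.52, led by Ccnb1 (2.64), Ccna2 (2.48) and Rrm2 (2.36). The summed level of the list was 503295 and 553687 intensity units in the in vitro preps, against 232028 and 235083 in the thymic preps. Mcm2 was the exception, at -0.08 without a call. All 9 tested of 12 stroma markers were called higher, led by Pdgfrb (4.69), Col1a1 (3.71) and Col1a2 (2.94), with summed levels of 10279 and 12749 in the in vitro preps, against 1354 and 1307 in the thymic preps. The markers Col5a2, Thbs1 and Fn1 had no array well above background in thymic cells and passed the filter only through the in vitro dye. Lum, Dcn and Cdh2 were not tested. Of 8 markers of immature CD4+CD8+ thymocytes 7 were tested and 5 called higher, led by Dntt (6.05), Arpp21 (5.61) and Rag1 (4.23), with summed levels of 250636 and 210227 in the in vitro preps, against 14969 and 15655 in the thymic preps.

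The CD8 T cell markers were bright in both kinds, with a summed level of 475755 and 413436 in the in vitro preps, against 498453 and 497029 in the thymic preps. Of the 8, 2 were called higher (Thy1 at 1.00 and Lck at 0.49) and 5 lower (Cd8b1 at -0.95, Cd8a at -0.76 and Cd3g at -0.70 the farthest), whereas with median centring 7 were called higher and 0 lower. Among all tested genes 26.7% were called higher and 25.3% lower. Thy1 and Cd8b1 each had a 2nd tested probe, which was not called. Calls among markers of B cells (0 higher and 1 lower of 5), myeloid cells (2 and 3 of 6) and dendritic cells (1 and 0 of 4) were few or mixed in direction. Of 3 tested natural killer cell markers 0 were called higher and 2 lower, with a median log2 difference of -2.39. The share of the 43379 gene spots well above background was 66.5% to 70.9% in Cy5 (in vitro-derived) and 63.7% to 65.6% in Cy3 (thymic), and the number of arrays limits the precision.

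Promoter matches were also counted by call over all tested genes with a RefSeq window. A match was found for 7.14% of the 3052 genes called higher (218 genes), for 3.34% of the 2900 called lower (97 genes) and for 3.02% of the 4993 not called (151 genes). Among the members, 5 of the 6 genes called higher on every probe had a match, Bmi1 being the exception, and the 4 others had none. These shares are a description, with no test, and genes with several windows had more chances of a match.

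How far the array's dyes are corrected decides how large the members' differences are. Loess removes the part of the log ratio that depends on a spot's brightness, and median centring only shifts each array. With median centring the median over all tested probes stood at 0.37, and 83.6% of calls were higher, against 51.0% with loess. Of the 15 member probes 14 were then called, 13 higher and 1 lower. The differences were 2.66 and 2.55 for the Uhrf1 probes, 1.55 for Dnmt1, 1.56 for Hells, 2.31 for Ezh2, -0.35 for Ezh1, 1.23 and 1.13 for the Suz12 probes and 1.06 and 0.79 for the Bmi1 probes. Relative to the shift of all probes, Dnmt1 stood at 1.18, Ezh2 at 1.94, Ezh1 at -0.72 and Eed at 0.27, and the Dnmt3a probes at 0.11, -0.27 and 0.45. On this relative scale Ezh2 and Dnmt1 were higher and Ezh1 lower under both corrections, and Eed and the Dnmt3a probe without a call changed sides.

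**Figure D4:**
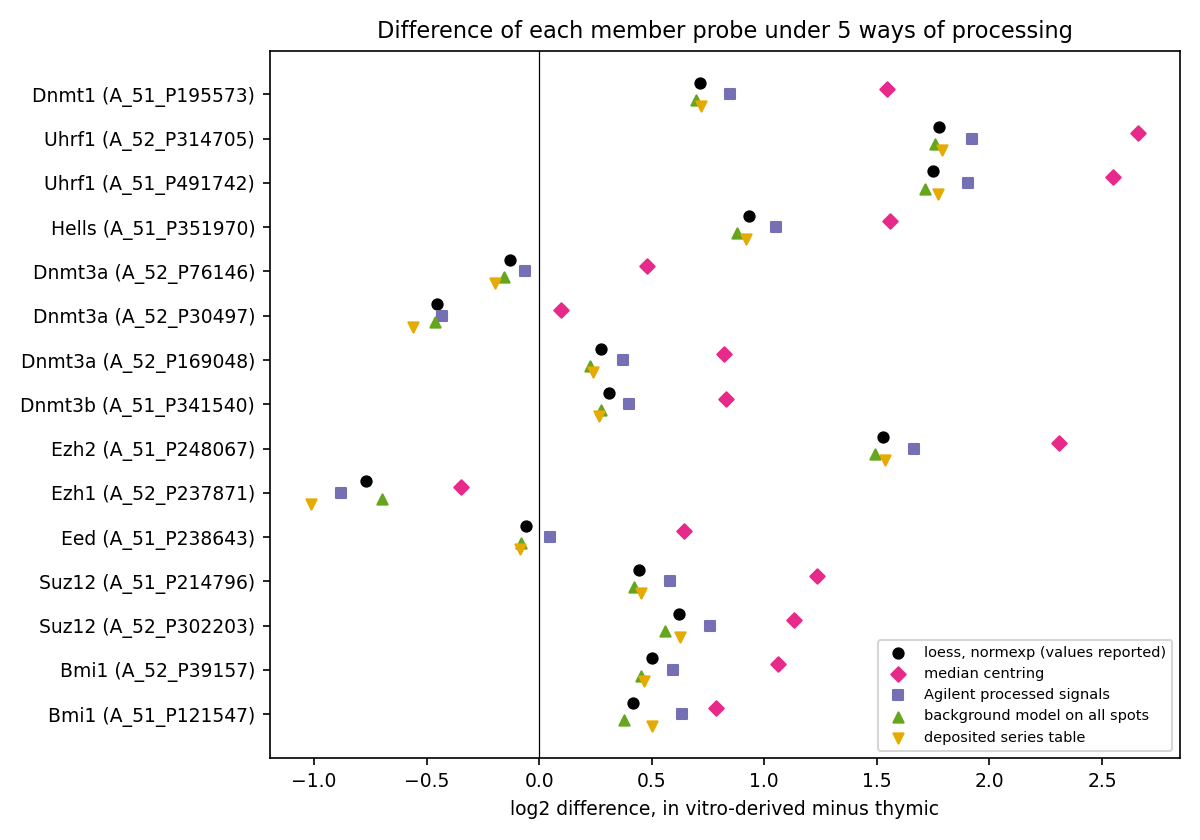
Log2 difference, in vitro-derived minus thymic (x axis), of each member probe (y axis) under 5 ways of processing. Median centring (pink diamonds) shifts every probe to the right of the other settings, taking Eed to 0.64 and the falling Dnmt3a probe to 0.10, while both Uhrf1 probes and Ezh2 stay above 1.4 and Ezh1 stays below 0 under all 5.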

How the data were processed

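Per the labels' protocols, Trizol-extracted total RNA (1 ug a sample) went through linear amplification and dye labelling with Agilent's Low RNA Input kit. The authors deposited spot intensity values on a linear scale (mean signal and local background of each dye), which per the file headers come from version 9.5.1.1 of Agilent Feature Extraction. They also deposited a series table of log10 ratios of Cy5 over Cy3, which match the log ratio column of the scanner files in scale and direction (Pearson's r across probes at least 0.99993 on each array). Each of its columns had a median of 0. The members and gene lists, and the step of leaving out marked spots first, were chosen with earlier results of these data known.

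Log ratios were computed with limma 3.58.1 in R 4.3.3. Spots marked as non-uniform or as outliers (133 to 187 per array) were left out. Normexp (offset 50) corrected the background and loess each array's log ratios, with controls weighted 0 and arrays not scaled to each other. Spots of a probe were averaged. The test took probes that 1 dye or both showed well above background on every array (27236 of 41174). The 4 log ratios gave 4 prep values, 2 per kind, tested with lmFit and eBayes (2 residual and 3.19 prior degrees of freedom), two-sided, with Benjamini-Hochberg adjustment over all tested probes. Levels per dye are log2 values after loess and Aquantile normalization, which left the log ratios unchanged. For genes with 1 dye not well above background, the fold is a bound from these levels and open to dye bias, since dyes were not swapped. Names were updated through RefSeq accessions, which matched 22951 of 41174 probes and changed 5141 names. Probe sequences and protein sequences were not used here.

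Named are all 10 members with every probe, from each of the other lists the 3 called genes with the largest increase and the 3 with the largest decrease (or as many as were called, and counts alone for B, myeloid, natural killer and dendritic cells), genes needed to show probes that disagree, and for Dnmt1 and Ezh2 the 3 nearest genes over the 4 log ratios. Mcm2, Tex101, Jarid2, Aebp2 and the wholly undetected markers were named after their values were seen. Alternatives tried were median centring, an offset of 16, Agilent's processed signals, the background model on all spots, marked spots kept, Aquantile scaling, stricter and no filters, gene level fits, arrays taken as independent, the series table, and leaving out each array or prep. A fit with the prep number as a block was added after the data were seen.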

Additional observations from a re-analysis of the deposited data

Results flagged for a closer look

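The log2 ratio of the Suz12 probe A_52_P302203 was 0.474 on array 3 (in vitro prep 1, thymic prep 2), against 0.6543 to 0.6821 on the other 3 arrays. The gap was wide for the range of 4 arrays. Among 15 member probes examined this was the only such value, and chance gives about 1 in 20. The probe was called higher with and without that array.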

How the results depend on the processing

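Of the results on single member probes, 269 kept their direction and their side of the threshold, 17 lost a call, 4 gained one and 5 turned. Keeping marked spots and fitting the background model on all spots were counted separately. They hardly differed for members, none of whose spots was marked. Part of the 269 was fixed in advance: Aquantile scaling left each log ratio unchanged. The other filters and the choice of the brightest probe left each member difference as it was. Both Uhrf1 probes, Dnmt1, Hells, Ezh2, Ezh1 and the Suz12 probe A_52_P302203 kept direction and call under all alternatives run. With median centring 81 of 97 probes of other Polycomb and DNA methylation genes were called (77 higher, 4 lower), against 53 (35 higher, 18 lower) as reported. Ezh2 minus Ezh1 was then 2.66 and Dnmt1 minus Dnmt3a 1.08, and the probes that turned were Dnmt3a A_52_P76146 (0.4789), Dnmt3a A_52_P30497 (0.0954) and Eed (0.6424). With Agilent's processed signals Ezh2 minus Ezh1 was 2.5487 and Eed turned to 0.0467. In the deposited series table Ezh2 minus Ezh1 was 2.5487 as well. At gene level, with the brightest probe or with the mean over probes, 27 genes of these lists were called, since fewer features were counted. Leaving out an array or a prep in turn gave 8124 to 14067 calls over all probes against 14223, 7 to 12 member probes against 12, and 28 to 58 list probes. The lowest counts came without thymic prep 1 (8713 calls, 7 member probes, 34 list probes) and without thymic prep 2 (8124 calls, 28 list probes), where the lone prep is assumed to vary like the other kind, and the cause was not tested. Without in vitro prep 1 Eed stood at 0.0328, in a range of -0.1515 to 0.0328. Median centring called 19270 probes. All member probes lay well above background, whereas the silencing targets were mostly dim. Some member calls still depended on the background model: fitted on all spots, it took the calls of both Bmi1 probes and of Dnmt3a A_52_P169048. In vitro and thymic preps share the numbers 1 and 2 in the labels, which do not say that a number marks a shared animal, batch or day. A fit with the prep number as a replicate block, chosen after seeing the data and with 1 residual degree of freedom, called 14671 probes, 12 member probes (10 higher, 2 lower) and 60 list probes, and changed the call of no member probe. The prep 2 minus prep 1 differences of the 2 kinds had a correlation of 0.13 across tested probes, which are not independent.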
